A study of Mus musculus with 4 samples.

Results

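The 6 genes described here, *Otx2*, *En2*, *Gbx2*, *Egr2*, *Phox2a* and *Tbx20*, are transcription factor genes that mark the midbrain, the hindbrain and the motor neurons (MNs) of the cranial nerves. They were taken by symbol from the 23420 genes counted in each library, as markers of anterior identity outside the *Hox* clusters. The rule itself uses no measured value, but the choice was made with earlier results of these data known. RNA-seq libraries of cervical MNs were compared between WT and *Patz1* KO, with 2 libraries per genotype. The WT cells were E14, a mouse embryonic stem cell (ESC) line, and the *Patz1* KO cells were made from it with CRISPR. Both genotypes were grown into embryoid bodies and taken to MNs with 1 uM retinoic acid and 0.5 uM smoothened agonist (SAG), which activates Hedgehog signalling. Several single-clone *Patz1* KO lines were made, and which line gave which library is not in the labels, so that an effect of the clone cannot be told apart from that of the genotype.

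PATZ1 is a zinc finger protein with a BTB/POZ domain and AT hooks that binds G-rich DNA. In the neural tube, OTX2 specifies forebrain and midbrain and GBX2 specifies the anterior hindbrain, and the border between their domains becomes the midbrain-hindbrain boundary, where the engrailed factors EN1 and EN2 act. Further back, EGR2 marks a pair of rhombomeres, the segments into which the hindbrain divides. PHOX2A is used by cranial MNs, visceral and branchial ones among them, and by noradrenergic neurons, and TBX20 is found in cranial MNs of the hindbrain. Retinoic acid gives neural cells a posterior character, and cervical MNs lie behind all these territories in the embryo.

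The total count was 14769104 to 15728158 in WT and ranged from 17402342 up to 23881522 in *Patz1* KO. Replicates, which the methods describe as independent differentiations, differed by more than the sampling noise (chi-square per gene 9.87 within WT and 22 within *Patz1* KO), and all p values below measure the spread between these libraries only. *Patz1* itself had 1363 and 1499 reads in WT against 1154 and 714 reads in *Patz1* KO, giving a log2 fold change of -1.04 with a standard error of 0.095. Sample titles mention ESCs, whereas the source and cell type given for them are MNs, so the defining genes of both cell types were inspected. All 10 somatic MN genes listed passed the filter on low counts, and their summed level was 756 to 791 CPM (counts scaled to library size) in WT and 893 to 970 CPM in *Patz1* KO. The vesicular acetylcholine transporter gene *Slc18a3* (log2 fold change 0.73) and the MN factor *Lhx3* (0.63) had the highest mean CPM over both genotypes in that list, in which 6 genes were called higher, 2 were called lower (*Foxp1*, the highest by its WT mean, and *Aldh1a2*) and the median log2 fold change was 0.66. The pluripotency factor *Pou5f1* had 7 counts in each WT library and 4 and 3 in *Patz1* KO. A bulk library cannot separate fewer cells of a type from less RNA per cell.

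Messages of these anterior factors were scarce in cervical MNs of both genotypes. *En2* was lower in *Patz1* KO, with 52.0% of its WT level. *Gbx2*, *Phox2a* and *Tbx20* were not called different, and *Otx2* and *Egr2* had too few reads for the test. Of the 6 genes, 4 passed edgeR's filter on low counts, and 1 of these 4 was called by edgeR's quasi-likelihood test at an adjusted p below 0.05 (Benjamini-Hochberg over all 14269 genes tested). Over all genes tested, 47.9% were called in either direction, 24.1% higher and 23.8% lower. The counts of called genes in each gene list of this report stand beside the same shares. The *Patz1* KO values did not overlap the WT values for 2 of the 4, *En2* and *Gbx2*, against 74.2% of all genes tested. DESeq2's Wald test called 0 of the 6, against 32.3% of the 15843 genes to which it gave an adjusted p, and at an unadjusted p below 0.05 it gave 1, *En2*, whose adjusted p was 0.059.

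**Figure D1:**
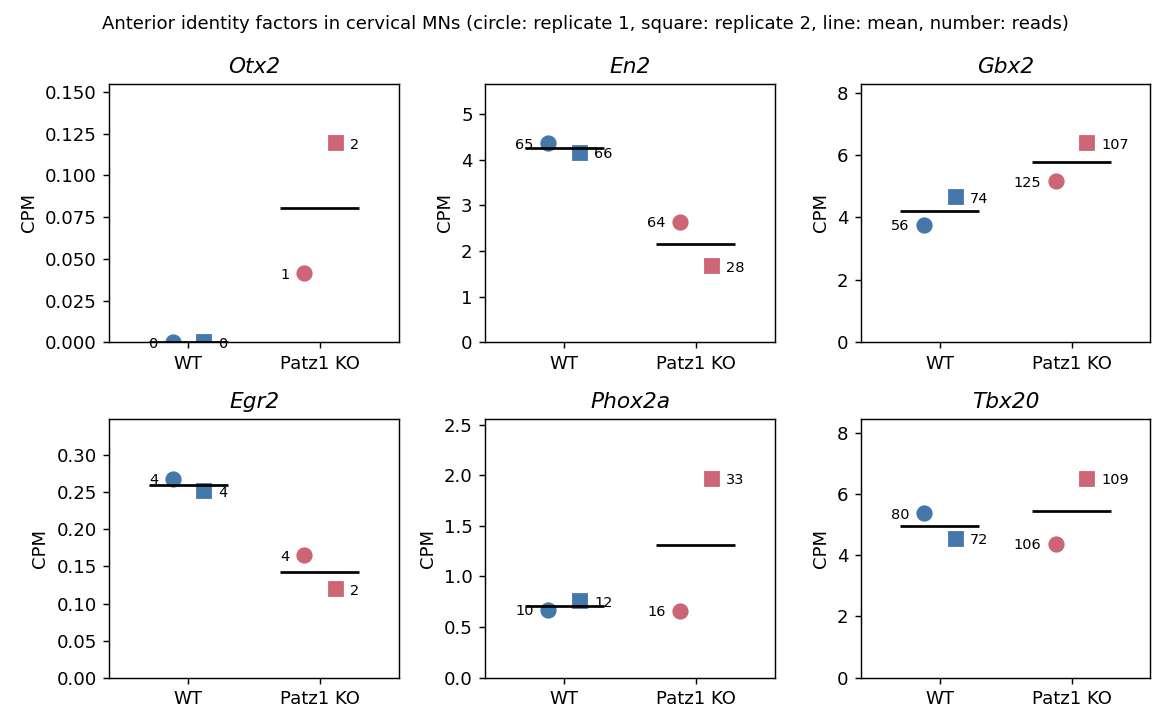
Level of each of the 6 factors in CPM (vertical axes, each with its own scale from 0) in the 2 WT and 2 *Patz1* KO libraries, with the number of reads printed beside each point and the mean of the group as a line. Both *Patz1* KO points lie below both WT points for *En2* and above them for *Gbx2*, while the points of the groups interleave for *Phox2a* and *Tbx20*, and no library holds more than 4 reads of *Otx2* or *Egr2*.

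Levels were compared between genes as CPM per kb of annotated exon. In WT, *Gbx2* was highest with 1.93 ± 0.29 CPM per kb (SD, n = 2 here and for the other levels), followed by *En2* with 1.20 ± 0.0425, *Tbx20* with 0.412 ± 0.0496, *Phox2a* with 0.350 ± 0.0289 and *Egr2* with 0.0765 ± 0.00353, and *Otx2* had no read. *Tbx20* and *Phox2a* were the only neighbours in that order whose libraries lay closer to each other than the SD of either gene, with 0.377 CPM per kb as the lowest *Tbx20* value and 0.371 as the highest *Phox2a* value. In *Patz1* KO, *Gbx2* was again highest (2.65 ± 0.397 CPM per kb), and *Egr2* (0.0418 ± 0.00952) and *Otx2* (0.0190 ± 0.0131) were again lowest, here with libraries closer to each other than the SD of either gene. The 3 genes between them, *Phox2a* (0.645 ± 0.454), *En2* (0.609 ± 0.194) and *Tbx20* (0.453 ± 0.125), overlapped and have no order there. On the same scale the somatic MN genes *Slc18a3* and *Mnx1* stood at 60.5 and 22.8 CPM per kb in WT. The exon length of *Tbx20* is the union of its annotated transcripts, 11997 bases, so its level per kb depends on how many of these bases are transcribed here.

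*Otx2*, the forebrain and midbrain factor, lies on chromosome 14 of GRCm38 (the same assembly as mm10) from 48657677 to 48673819 on the minus strand. It had no read in either WT library and 1 and 2 reads in those of *Patz1* KO. Taken as a floor, 3 counts are 0.201 and 0.189 CPM in the 2 WT libraries. The exact Poisson intervals reach 0.247 and 0.232 CPM in the WT libraries and 0.23 and 0.43 CPM in those of *Patz1* KO. These intervals cover counting error only, as the reads carry no molecular identifiers. Both groups were at or under this floor of 3 counts, no fold change is given, and at this depth no difference could be detected. Its exons overlap those of *Gm49154* and, on the other strand, of *Otx2os1*, which had 0 counts in all 4 libraries.

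The other genes of the same territory were as scarce. None of the 13 forebrain and midbrain genes listed passed the filter, and the highest count of any of them was 9. *Emx1*, *Rax* and *Fezf2*, which pattern the cortex and the eye field, had 0 counts in all 4 libraries, and the summed level of the list was 1.63 to 1.88 CPM in WT and 0.894 to 1.48 CPM in *Patz1* KO. When the filter was left out, edgeR called 1 gene of the list. DESeq2 gave 4 of the 13 genes an adjusted p and called 0 of them, with 1 at an unadjusted p below 0.05.

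*Otx2* and *Gbx2* are also used outside the brain, in pluripotent cells, and *Otx2* in visceral endoderm. Of 8 pluripotent cell and epiblast genes, 4 were tested and 0 were called by edgeR (median log2 fold change -0.45), with a summed level of 192 to 210 CPM in WT and 165 to 184 CPM in *Patz1* KO. Most of that sum was *Sox2*, which neural progenitors also express (log2 fold change -0.20, adjusted p = 0.08 by edgeR), and *Nanog* followed it (-0.70, adjusted p = 0.0551 by edgeR). *Nanog* lay at the threshold and was called lower by edgeR with DESeq2's size factors, library size alone, no filter, at least 10 counts in every library or the replicate block (adjusted p = 0.0197 to 0.0492). Both were called lower without the second *Patz1* KO library (*Sox2* -0.27, *Nanog* -1.16). At an unadjusted p below 0.05, edgeR gave 3 of the 8, and DESeq2 called 0 of them at an adjusted p below 0.05. Visceral endoderm genes differed far more between the genotypes. Of 10 listed, 9 were tested and 8 were called lower, with *Foxa2* (-2.35) and *Dab2* (-3.34) at the highest CPM. The sum of the list was 70.6 to 79.6 CPM in WT against 10.9 to 12.8 CPM in *Patz1* KO. *Ttr*, *Sox17*, *Gata4*, *Gata6* and *Hnf4a* passed the filter only through the WT libraries, where they were high, so no median is given. *Afp* was the tested gene that was not called (-0.04, adjusted p = 0.959 by edgeR). *Foxa2* is also a gene of the ventral neural tube. The part of these cells in the values of *Gbx2* was not tested.

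*En2*, an engrailed homeobox gene of the midbrain-hindbrain boundary, lies on chromosome 5 from 28165694 to 28172166 on the plus strand, and its exons overlap those of no other annotated gene. It had 65 and 66 reads in WT against 64 and 28 reads in *Patz1* KO. Scaled to library size, this was 4.36 and 4.15 CPM in WT and 2.64 and 1.67 CPM in *Patz1* KO. The groups did not overlap, and the second *Patz1* KO library was the lowest. The log2 fold change was -0.94 (standard error 0.28, 95% interval -1.52 to -0.37, adjusted p = 0.00896 by edgeR). The call rested on few reads. It was lost with DESeq2's Wald test (-0.96, adjusted p = 0.059) and without the first WT library (-0.91, adjusted p = 0.0516 by edgeR), while the direction was the same without any one of the 4 libraries, from -1.34 to -0.68. The visceral endoderm sum given above was lower in *Patz1* KO as well and the somatic MN sum higher, and the part of either in the *En2* values was not tested.

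*En1*, the other engrailed gene, moved the other way. It had 10 and 9 reads in WT against 43 and 36 reads in *Patz1* KO, giving a log2 fold change of 1.64 (with a standard error of 0.40, adjusted p = 0.00246 by edgeR). In CPM per kb, *En2* was above *En1* in WT (1.20 ± 0.0425 against 0.236 ± 0.0284), and in *Patz1* KO the pair overlapped (0.609 ± 0.194 against 0.747 ± 0.1). EN1 is used by the V1 interneurons of the spinal cord as well as at the boundary. Because the pair is closely related in sequence, the most alike 180 bases of both coding sequences are shown, with the bases that differ in capitals.
En2: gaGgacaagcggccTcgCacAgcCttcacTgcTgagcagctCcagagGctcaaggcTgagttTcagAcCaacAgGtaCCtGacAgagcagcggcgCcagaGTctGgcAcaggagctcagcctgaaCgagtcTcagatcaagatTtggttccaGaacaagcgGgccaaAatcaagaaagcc
En1: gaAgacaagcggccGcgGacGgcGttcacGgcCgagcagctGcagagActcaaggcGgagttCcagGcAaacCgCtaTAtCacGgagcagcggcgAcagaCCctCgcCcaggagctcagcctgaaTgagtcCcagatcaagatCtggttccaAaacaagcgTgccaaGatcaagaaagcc
These windows, bases 700 to 879 of the *En2* coding sequence and 931 to 1110 of that of *En1* (GENCODE M21 transcripts), encode the homeodomain and are identical at 150 of 180 bases (83.3%). The longest stretch shared without a difference by the whole coding sequences was 17 bases. How the counting treated reads that map to more than one place is not given in the sources used here.

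The rest of the boundary genes were low apart from *Sp8*, a zinc finger factor gene. Of 10 listed, 4 were tested, 2 were called higher (*En1* and *Pax8*) and 1 lower (*Sp8*). *En1* and *Pax8* passed the filter only through the *Patz1* KO libraries, where they were high, so no median is given for the 4. *Pax8*, a paired box gene of the boundary and of spinal interneurons, had 1 and 2 reads in WT against 24 and 20 reads in *Patz1* KO. Its ratio of summed levels was 11 (*Patz1* KO over WT, exact 95% interval 3.53 to 55.4 for counting error only, adjusted p = 0.00042 by edgeR). *Sp8* had 971 and 1131 reads in WT against 1162 and 822 reads in *Patz1* KO, and dropped by 0.49 on the log2 scale (adjusted p = 0.000355 by edgeR). *Fgf8*, which encodes the organizer signal of the boundary, had a single read in all 4 libraries.

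*Gbx2*, the anterior hindbrain factor, lies on chromosome 1 from 89927956 to 89931179 on the minus strand, with the antisense gene *D130058E05Rik* over its exons. It had 56 and 74 reads in WT against 125 and 107 reads in *Patz1* KO. In CPM this was 3.76 and 4.65 in WT and 5.15 and 6.38 in *Patz1* KO. The groups did not overlap, but the gap between them was narrower than the spread within either group. The log2 fold change was 0.44 (standard error 0.22, 95% interval -0.0308 to 0.91, adjusted p = 0.114 by edgeR), and the interval leaves room for a rise of 0.91 as well as for none. Without the first *Patz1* KO library *Gbx2* was called higher (0.60, adjusted p = 0.0279 by edgeR). Its family member *Gbx1*, a gene of the dorsal spinal cord, had 15 and 28 reads in WT against 31 and 12 reads in *Patz1* KO, with overlapping groups (log2 fold change -0.43, adjusted p = 0.417 by edgeR). The pair is shown in the same way, as 180 coding bases with the differences in capitals.
Gbx2: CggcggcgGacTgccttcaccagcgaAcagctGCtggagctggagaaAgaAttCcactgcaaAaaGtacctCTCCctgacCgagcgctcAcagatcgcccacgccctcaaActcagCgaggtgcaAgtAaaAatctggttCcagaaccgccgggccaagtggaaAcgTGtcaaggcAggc
Gbx1: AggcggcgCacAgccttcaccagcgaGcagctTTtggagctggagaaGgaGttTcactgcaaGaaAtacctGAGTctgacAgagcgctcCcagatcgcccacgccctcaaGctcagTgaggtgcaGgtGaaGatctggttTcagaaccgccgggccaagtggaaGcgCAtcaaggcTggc
Bases 745 to 924 of *Gbx2* and 952 to 1131 of *Gbx1* are identical at 153 of 180 bases, and the longest stretch shared by the coding sequences was 38 bases.

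*Egr2*, the zinc finger gene of the rhombomeres, lies on chromosome 10 from 67535475 to 67542188 on the plus strand, with no other annotated exon over its own. It had 4 and 4 reads in WT against 4 and 2 reads in *Patz1* KO, or 0.268 and 0.251 CPM in WT and 0.165 and 0.119 CPM in *Patz1* KO. It did not pass the filter. The exact Poisson intervals of the 4 libraries overlapped one another, from 0.0144 to 0.687 CPM over all of them. Tested without the filter, it gave a log2 fold change of -0.78 (with a standard error of 1.11 and an adjusted p = 0.621 by edgeR), and at this depth no difference could be detected. *Egr2* is also a gene of myelinating Schwann cells and of the immediate early response to stimulation. Of 7 neural crest and Schwann cell genes, 6 were tested, 3 were called higher and 1 lower, with *Pou3f1* (-0.41), which MNs express too, among the highest in CPM. *Foxd3* passed the filter only through the *Patz1* KO libraries, where it was high, so no median is given. *Pou3f1* was not called without the first WT library (-0.33, adjusted p = 0.139 by edgeR) or the second *Patz1* KO library (-0.19, adjusted p = 0.154). The sum of the list was 39.4 to 42.3 CPM in WT and 46.3 to 67.9 CPM in *Patz1* KO. Of 8 immediate early genes, 6 were tested and 1 was called, lower (*Arc*), with a median of -0.00834, a sum of 39.3 to 40.9 CPM in WT and 34.4 to 38.0 CPM in *Patz1* KO, and *Ier2* (-0.24) and *Junb* (0.30), neither of them called, at the highest CPM.

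Genes of hindbrain segmentation were present at far higher levels than *Egr2*. Of 15 listed, 13 were tested, 3 were called higher and 6 lower, beside 47.9% of all genes tested called in either direction. No median is given, since *Cyp26c1* passed the filter only through the WT libraries, where it was high. The lower genes included the ephrin ligand gene *Efnb2* (log2 fold change -0.69, adjusted p = 1.07e-05 by edgeR) and the Eph receptor genes *Epha7* (-0.73, adjusted p = 1.78e-05) and *Epha4* (-0.57), which sort cells at segment borders and also guide motor axons. *Cyp26b1* (-0.30) and *Cyp26c1* (-2.46), whose enzymes break down retinoic acid were lower too. *Cyp26c1* had 11 and 23 reads in WT against 6 and 2 in *Patz1* KO, and it was not called without the second WT library (-1.89, adjusted p = 0.128 by edgeR). The smaller change of *Cyp26b1* was not called when either WT library was left out (adjusted p = 0.137 to 0.193 by edgeR). The higher genes were *Nab1*, a corepressor of the EGR factors (0.82, adjusted p = 3.81e-05 by edgeR), and the Iroquois homeobox genes *Irx2* (0.44) and *Irx3* (0.70), which spinal progenitors also use.

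*Phox2a*, a homeobox gene of cranial MNs and of noradrenergic neurons, lies on chromosome 7 from 101818313 to 101822726 on the plus strand. It had 10 and 12 reads in WT against 16 and 33 reads in *Patz1* KO. In CPM this was 0.671 and 0.754 in WT and 0.660 and 1.97 in *Patz1* KO. The first *Patz1* KO library lay below both WT libraries and the second above them. The log2 fold change was 0.78 (standard error 0.51, 95% interval -0.293 to 1.86, adjusted p = 0.219 by edgeR), and the second *Patz1* KO library decided it. Without that library the value was -0.11 (adjusted p = 0.897 by edgeR), and without the first *Patz1* KO library it was 1.46 (adjusted p = 0.01). On the other strand, exons of *Inppl1* overlap those of *Phox2a*. *Inppl1* had 1230 and 1317 reads in WT against 1949 and 1126 in *Patz1* KO (-0.16, adjusted p = 0.188 by edgeR), and since the strand setting of the counting is not given in the sources used here, reads of the pair may not have been told apart.

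**Figure D2:**
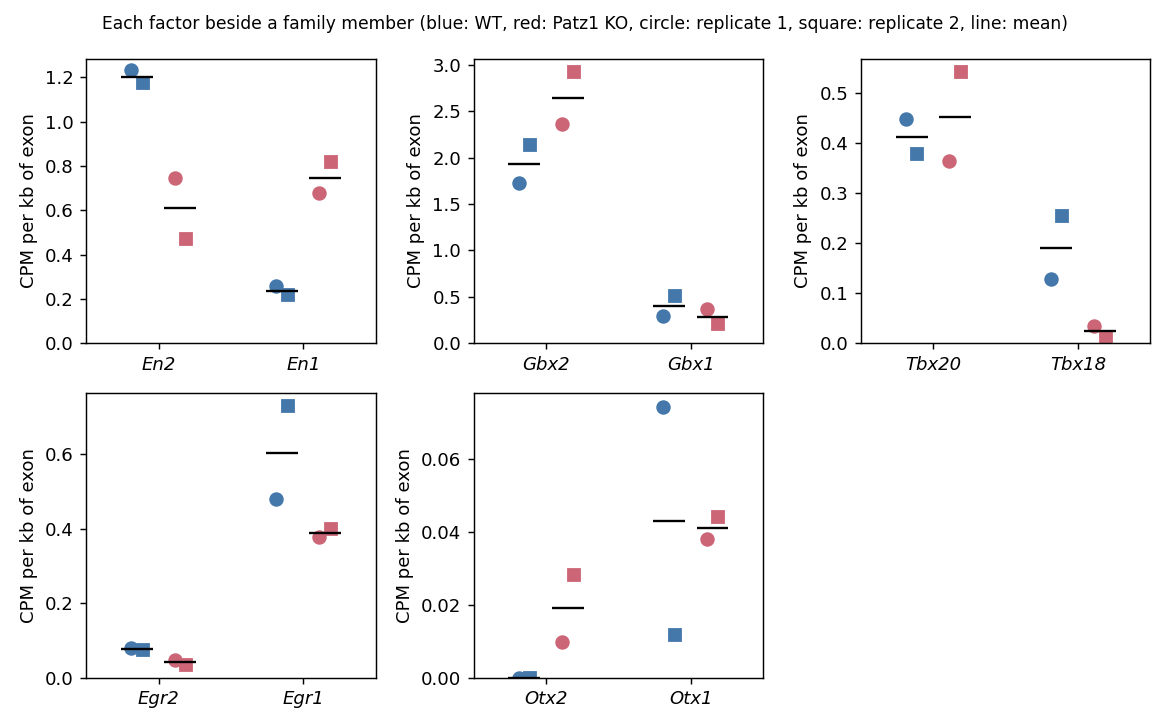
CPM per kb of annotated exon (vertical axes, each with its own scale from 0) of 5 of the factors, each beside a member of its family, in the 2 WT and 2 *Patz1* KO libraries, with group means as lines. *En2* falls from 1.20 to 0.609 CPM per kb while *En1* goes from 0.236 to 0.747, and for *Tbx20* the *Patz1* KO libraries lie on both sides of the WT libraries.

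*Tbx20*, a T-box gene of hindbrain MNs and of the heart, lies on chromosome 9 from 24718138 to 24774303 on the minus strand, with no other annotated exon over its own. It had 80 and 72 reads in WT against 106 and 109 reads in *Patz1* KO. In CPM this was 5.37 and 4.53 in WT and 4.37 and 6.49 in *Patz1* KO. The 2 *Patz1* KO libraries lay on either side of the 2 WT libraries. The log2 fold change was 0.11 (standard error 0.23, 95% interval -0.379 to 0.607, adjusted p = 0.714 by edgeR), and it was -0.17 without the second *Patz1* KO library (adjusted p = 0.564). Of 9 heart muscle genes, 3 were tested and 2 were called lower, *Gata4* (-3.49) and *Hand2* (-2.12), which also count among the visceral endoderm and the noradrenergic genes. *Gata4* and *Hand2* passed the filter only through the WT libraries, where they were high. The sum of the list was 10.3 to 12.3 CPM in WT and 3.22 to 4.89 CPM in *Patz1* KO. *Nkx2-5*, the defining heart factor, had 0 and 0 reads in WT against 1 and 3 in *Patz1* KO, and the part of heart cells in the *Tbx20* values was not tested.

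**Figure D3:**
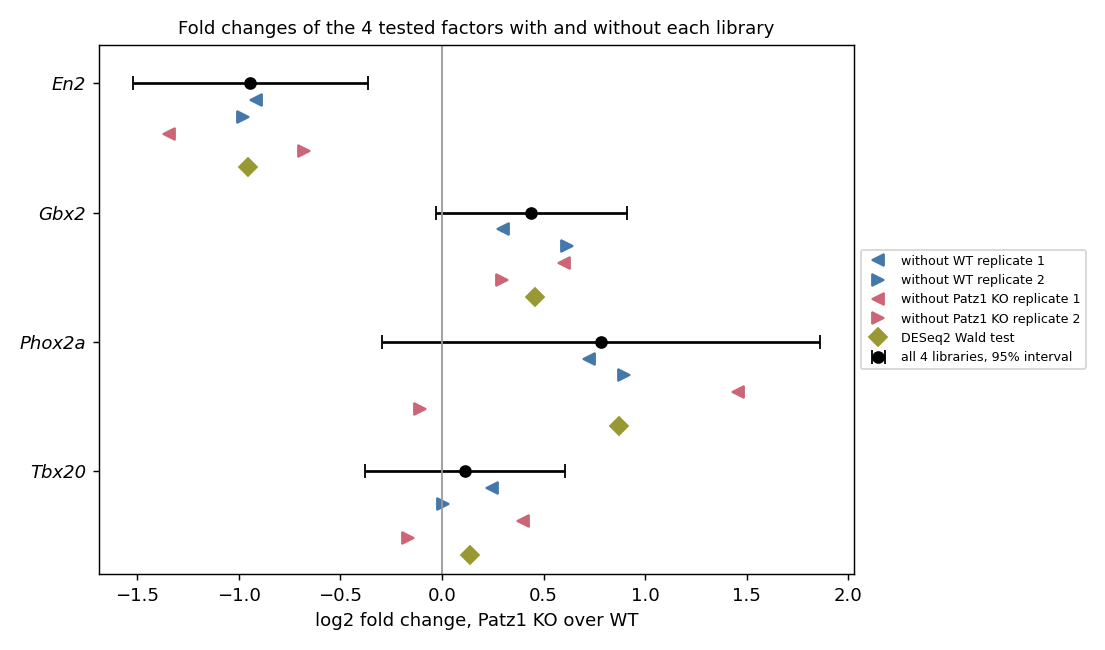
Log2 fold change of *Patz1* KO over WT (horizontal axis) for the 4 factors that passed the filter, with all 4 libraries and the 95% interval (black), without each library in turn and with DESeq2 on all 4 libraries. All values of *En2* lie below 0 and all of *Gbx2* above, whereas *Phox2a* goes from -0.11 to 1.46 and *Tbx20* from -0.17 to 0.40 with the *Patz1* KO library left out.

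Cranial MN genes apart from *Phox2a* and *Tbx20* were all above the filter. Of 13 listed, 13 were tested, 4 were called higher and 2 lower, which is near the 47.9% of all genes tested that were called. Their median log2 fold change was -0.10. The homeobox genes *Nkx2-9* and *Nkx2-2*, which mark the ventral progenitors that give rise to visceral MNs in the hindbrain and to V3 interneurons in the spinal cord, were higher. *Nkx2-9* had 50 and 85 reads in WT against 506 and 364 reads in *Patz1* KO (2.28, adjusted p = 1.94e-08 by edgeR). *Nkx2-2*, over whose exons the antisense gene *Nkx2-2os* lies, had 110 and 104 reads in WT against 391 and 271 in *Patz1* KO (1.21, adjusted p = 4.84e-06). *Rgs4* (1.45), a regulator of G protein signalling, and *Ret* (0.55), the receptor for GDNF in spinal as well as cranial MNs, were higher too. The T-box genes *Tbx2* (-1.51, adjusted p = 1.3e-05 by edgeR) and *Tbx3* (-0.83) were lower. *Tbx3* was not called without the first or the second WT library (adjusted p = 0.0667 and 0.082 by edgeR) or without the first *Patz1* KO library (-0.50, adjusted p = 0.127). *Isl1*, which somatic and visceral MNs share and which also stands among the somatic MN genes, was not called (-0.19, adjusted p = 0.0768 by edgeR).

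The noradrenergic genes, some of which PHOX2A is known to regulate, split in both directions. Of 7 listed, 7 were tested, 2 were called higher and 3 lower, beside 47.9% of all genes tested called in either direction. *Dbh*, *Slc6a2* and *Hand2* passed the filter only through the WT libraries, where they were high, so no median is given. *Dbh*, the enzyme that makes noradrenaline from dopamine, had 48 and 55 reads in WT against 8 and 5 reads in *Patz1* KO (-3.37, adjusted p = 1.86e-06 by edgeR). *Hand2*, a factor of sympathetic neurons over whose exons the antisense gene *Hand2os1* lies, had 57 and 50 reads in WT against 11 and 21 reads in *Patz1* KO (-2.12, adjusted p = 2e-04 by edgeR). The noradrenaline transporter gene *Slc6a2* (-1.38, adjusted p = 0.0434 by edgeR) was lower as well, with 10 and 20 reads in WT against 6 and 9 in *Patz1* KO. Of the 4 fits that left out 1 library, only that without the second *Patz1* KO library called *Slc6a2* (-1.94, adjusted p = 0.0182), and the other 3 gave -0.83 to -1.74 (adjusted p = 0.0641 to 0.514 by edgeR). *Ddc*, which encodes the decarboxylase of dopamine and serotonin synthesis, had 1131 and 1068 reads in WT against 7851 and 5498 in *Patz1* KO (2.19, adjusted p = 1.03e-11), and the vesicular monoamine transporter gene *Slc18a2* was higher (0.29, adjusted p = 0.0367), which was not called when either WT library was left out or without the second *Patz1* KO library (0.19 to 0.36, adjusted p = 0.0746 to 0.276 by edgeR). *Th*, the tyrosine hydroxylase gene, was not called (-0.06, adjusted p = 0.662 by edgeR). The summed level was 146 to 160 CPM in WT and 402 to 414 CPM in *Patz1* KO, where most of it was *Ddc*. The visceral endoderm sum given above moved in the same direction as *Dbh* and *Hand2*, and its part in them was not tested.

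**Figure D4:**
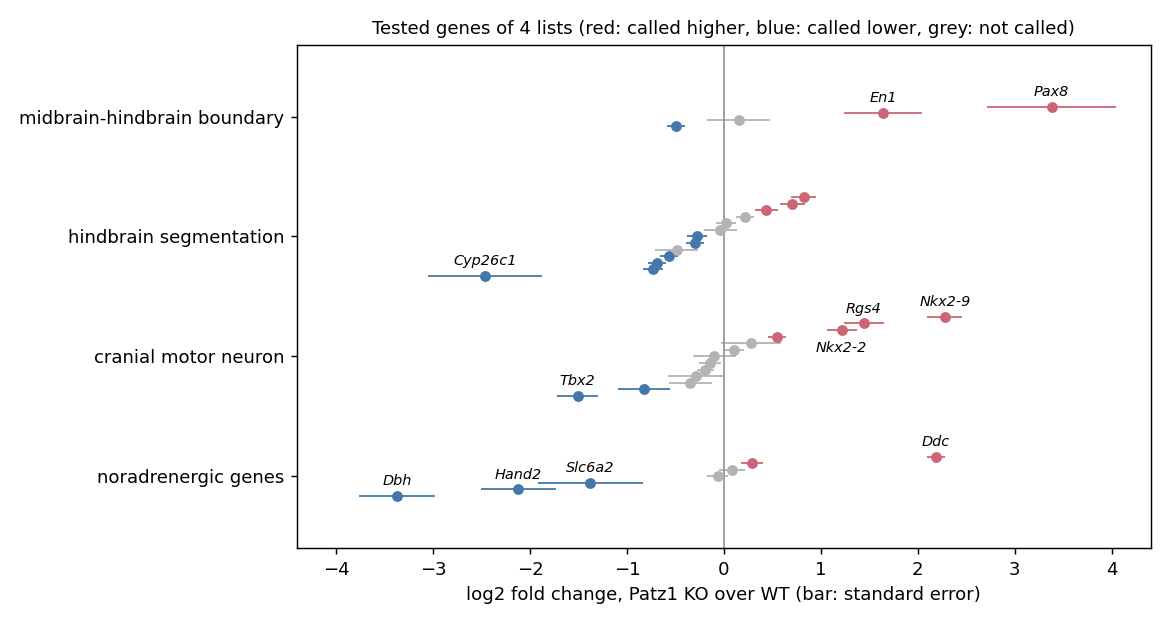
Log2 fold change of *Patz1* KO over WT (horizontal axis, bars are standard errors) of each tested gene of the boundary, hindbrain segmentation, cranial MN and noradrenergic lists, coloured by edgeR's call at an adjusted p below 0.05. Genes called higher and genes called lower occur in all 4 lists, and the genes plotted farthest from 0 are *Pax8* (3.38, fitted with 3 reads in all of WT) and *Dbh* (-3.37).

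Among the 13 family members of the 6 factors, 6 were tested, 1 was called higher (*En1*) and 1 lower (*Tbx18*), beside 47.9% of all genes tested. *Tbx18*, a T-box gene of heart and mesenchyme, had 9 and 19 reads in WT against 4 and 1 reads in *Patz1* KO (-2.83, adjusted p = 0.00208 by edgeR). It passed the filter only through the WT libraries, where it was high, and *En1* only through the *Patz1* KO libraries. *Tbx18* was no longer tested without the second WT library or with at least 10 counts in every library. *Egr1* had 32 and 52 reads in WT against 41 and 30 in *Patz1* KO and was not called (-0.65, adjusted p = 0.0941 by edgeR). *Egr4* and *Tbx22* had 0 counts in all 4 libraries.

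The genes with the pattern most like each factor over the 4 libraries were found by the largest difference in centred log2 CPM, among 13363 genes with a mean of at least 1 CPM. *En2* was closest to *Eaf2* (largest difference 0.0402) and *Hist2h3c2* (0.065), a histone gene with near-identical copies whose count is uncertain for that reason. *Gbx2* was closest to *Dtd2* (0.0554) and *Zfp939* (0.0602), and *Tbx20* to *Gm13889* (0.054) and *Bola2* (0.0582). For *En2*, *Gbx2* and *Tbx20*, 9, 32 and 36 genes lay within 0.1, and for *Phox2a* 0 did, its closest being *Bst2* (0.149) and *LOC100504703* (0.201). With 4 points per gene such likeness is a description only.

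As PATZ1 binds G-rich DNA, the 250 bases before the annotated starts were searched on both strands for GGGAGGG and GGGGNGGGG, a pair of G-rich letter runs that can overlap each other. RefSeq (GRCm38.p6) gave 12 such windows for 5 of the 6 factors, all but *En2*. GGGAGGG was in 0 of the 12 windows, against 19.7% of all 32851 windows. GGGGNGGGG was in 4 of the 12, against 20.6% of all windows. It occurred 3 times before *Phox2a*, once before *Tbx20*, 3 times in 1 of the 4 *Otx2* windows and once in 1 of the 5 *Egr2* windows, which overlap in part, and 0 times before *Gbx2*. The *Phox2a* window, chr7:101818063-101818312 on the plus strand, is shown as that of a tested factor with the most matches, which are in capitals.
Phox2a: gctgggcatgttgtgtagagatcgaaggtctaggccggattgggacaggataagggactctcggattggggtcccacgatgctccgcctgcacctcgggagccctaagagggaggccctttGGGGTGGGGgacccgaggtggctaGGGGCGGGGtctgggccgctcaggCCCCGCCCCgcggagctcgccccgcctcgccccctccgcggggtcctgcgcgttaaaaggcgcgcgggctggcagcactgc
A match describes letters only, and no binding was measured in these libraries.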

How the data were processed

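Cervical MNs of WT and *Patz1* KO genotype were sequenced as 2 libraries each, from 1 ug of total RNA with ribosomal RNA removed and a stranded kit. The deposited values are raw counts of reads per gene symbol. Per the labels' processing notes, the authors used TopHat2 2.1.1, Bowtie2 2.3.1, featureCounts 1.6.2 and DESeq2 with mm10. The annotation, the strand setting and the treatment of reads with several matches are not given in the sources used here.

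The members and gene lists were chosen with earlier results of these data known, from general knowledge, and no set test was run. Counts were normalized with TMM, filtered with filterByExpr (minimum count 10) and tested with edgeR 4.0.16 (R 4.3.3, limma 3.58.1) by the quasi-likelihood test, with Benjamini-Hochberg adjustment over 14269 genes and a threshold of 0.05. Fold changes are *Patz1* KO over WT, the standard error is the absolute log2 fold change over the square root of F, and CPM uses TMM library sizes. No permutation test was run for single genes, because 2 against 2 libraries cannot reach 0.05 in it. The procedure was checked on simulated data.

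The genes named were the 6 members, *Patz1*, the 3 smallest p values of each region or family list with further called genes, the 2 highest marker genes of each cell type and the 2 genes most like each tested member (prior count 2). Single zero or low counts of *Pou5f1*, *Fgf8*, *Nkx2-5*, *Egr4* and *Tbx22*, the values of *Isl1*, *Th*, *Mnx1*, *Gbx1*, *Inppl1* and *Afp* and the call of *Arc* were given outside that rule, after they were seen. So were the remarks on genes that passed the filter through a single genotype only. Some listed genes enter the counts, sums and medians but are not reported here by themselves.

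Alternatives tried were scaling by DESeq2's size factors or by library size only, no filter, a filter of at least 10 counts in every library, a replicate block, the Wald test of DESeq2 1.42.0, a test against an absolute log2 fold change of 1, and each library left out in turn, which assumes that the lone library varies like the other genotype. Positions, exon lengths and coding sequences came from GENCODE M21 on GRCm38, upstream sequences from RefSeq on GRCm38.p6. Sequence work used Python 3.11.15, and plots matplotlib 3.10.9.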

Additional observations from a re-analysis of the deposited data

How the results depend on the processing

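With 2 libraries per genotype and at most 125 reads of any of the 6 factors in a library, calls moved with single libraries. The number of factors called was 1 as reported, 0 with DESeq2's Wald test, 0 when tested against an absolute log2 fold change of 1, and 0 to 3 without 1 library (0 without the first WT library, and 3 without the first *Patz1* KO library, which added *Gbx2* and *Phox2a*). *En2* was not called at -0.96 with DESeq2 (adjusted p = 0.059), at -0.94 when tested against an absolute log2 fold change of 1, or without the first WT library, and went from -1.34 to -0.68 without 1 library. Without 1 library, *Gbx2* went from 0.30 to 0.61, *Phox2a* from -0.11 to 1.46 and *Tbx20* from -0.17 to 0.40, and the last 2 changed sign.

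Among the lists, the boundary genes called went from 3 to 1 with at least 10 counts in every library (*En1* and *Pax8* were no longer tested) and to 1 when tested against an absolute log2 fold change of 1. That test also left 0 of 9 hindbrain segmentation genes, 1 of 6 cranial MN genes (*Nkx2-9*) and 3 of 5 noradrenergic genes. The noradrenergic count was also 3 with at least 10 counts in every library (*Dbh* and *Slc6a2* were no longer tested), 3 with DESeq2 and 3 to 4 without 1 library. Without the filter, forebrain and midbrain genes called went from 0 to 1. Over all genes tested, 6837 were called as reported, 718 with that test and 4521 without the second WT library.

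The replicate numbers are shared between the genotypes, but no label or method ties them to a common differentiation, and the deviations of same-numbered libraries had a correlation of 0.0485. With the number as a block, 7363 genes were called over all, the call of *En2* stayed (-0.98, adjusted p = 0.0021 by edgeR) and none of the other 3 tested factors was called, and *Zfp503* was added to the hindbrain segmentation genes. Scaling by DESeq2's size factors or by library size alone changed no direction or call of the 6 factors.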
